A study of Mus musculus with 8 samples.

Results

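TRAV10 is a variable (V) gene of the mouse T cell receptor α (TRA) locus on chromosome 14. It was followed here through every TRA chain whose V call read TRAV10, or TRAV10D or TRAV10N, the names of its duplicated copies. Of 107882 barcodes with a TRA chain and no multiplet mark, 4178 carried such a chain, or 3.87% (exact 95% binomial interval 3.76 to 3.99). All 4178 were called TRAV10, and 0 were called TRAV10D or TRAV10N. A barcode stands for 1 cell as the authors' pipeline separated it.

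The chains came from CD8+ T cells of 7 mice, recorded in 14 tables. All 7 mice had a thymus table, mouse-155A and mouse-155C also had a spleen table, and the remaining 5 mice a tumor table. The study compared Pdcd1fl/fl mice with Pdcd1 cKO mice, in which CD8 E8I-Cre removes PD-1 only from CD8+ T cells, either at baseline or bearing B16-OVA or B16-F10 melanoma. The labels tie neither genotype nor tumor model nor age to a mouse, so no genotype was compared. Animal and tissue were read from the names the tables were deposited under, and each table has no replicate. Thymic and splenic cells were enriched with a CD8a+ isolation kit and tumor cells with CD8 microbeads. No primary chain was of a TRG, TRD or immunoglobulin locus. The libraries were made for the α and β chains, so this absence does not measure purity. The 8 sublibraries gave TRAV10 shares of 3.63% to 4.32%.

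A developing T cell joins 1 V gene to 1 joining (TRAJ) gene to make its α chain, and it can do so repeatedly, replacing an early join with one between V and J genes farther apart. The junction between V and J forms the third complementarity-determining region (CDR3), where bases are trimmed and added, and this loop faces the antigenic peptide. The chain is then paired with a β chain (TRB), and cells that carry the same pair are counted as a clonotype. Several TRAV families of the mouse lie in duplicated blocks, so that near-identical V genes stand at several places of the locus.

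The 3 copies lie on the plus strand of chromosome 14 (GRCm39). Trav10d (ENSMUSG00000094792.4) spans 53048391 to 53048953, Trav10n (ENSMUSG00000095646.2) 53359571 to 53360067 and Trav10 (ENSMUSG00000096551.3) 53743184 to 53743743. Their main coding exon has 291 bases. Trav10 and Trav10d differed at 2 of them (identity 99.3%), Trav10d and Trav10n at 3 (99.0%) and Trav10 and Trav10n at 5 (98.3%). The last 42 bases of that exon are shown because 4291 of the 5646 annotated TRAV10 chains begin at the first of them. Capitals mark the part that opens the CDR3, from the conserved cysteine codon on.
Trav10d, chr14:53048912-53048953: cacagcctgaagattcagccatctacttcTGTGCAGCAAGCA
Trav10n, chr14:53360026-53360067: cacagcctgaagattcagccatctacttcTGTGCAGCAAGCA
Trav10, chr14:53743702-53743743: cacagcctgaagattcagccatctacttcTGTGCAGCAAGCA
The nearest base at which any copy differs from another lay 86 bases before the end of the exon, and it sets Trav10n apart. Trav10 and Trav10d first differed 194 bases before the end.

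The deposited annotation held 5646 TRAV10 chains, counting second chains and barcodes with a multiplet mark. They reached 40 to 81 bases into the exon from its end, with a median of 42. None reached a base that separates copies, and 3 chains would make 0.0531%. Among the 3217 annotated barcodes counted here the number was also 0. The call TRAV10 therefore stands for the 3 copies together, and which copy a cell had rearranged cannot be told from these chains. The family itself is set apart within this window, since the closest genes outside it, among them Trav14-1 and Trav5-1, differed from Trav10 at 6 of the last 42 bases. The aligned V part was identical to the reference in 96.9% of the 5646 chains.

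**Figure D1:**
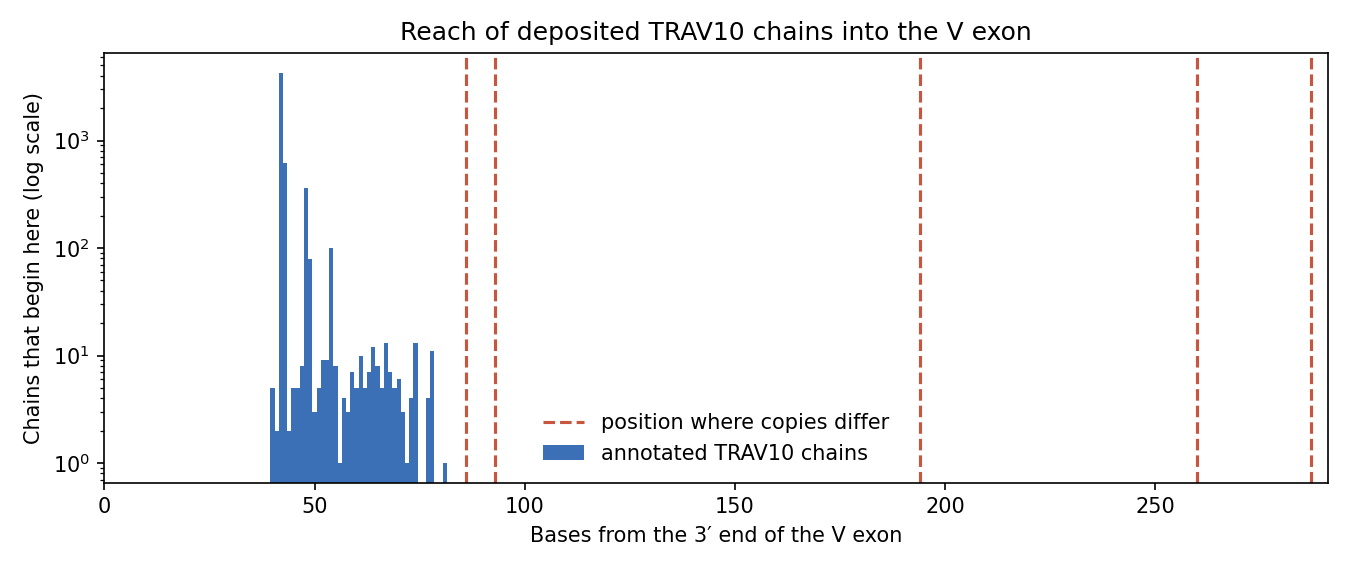
Annotated TRAV10 chains by the position in the V exon at which they begin, counted in bases from the 3′ end of the exon, with the number of chains on a log axis. Dashed lines mark the 5 positions at which the copies differ. All chains begin within 81 bases of the end, and the nearest line stands at 86.

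The share of TRAV10 lay in a narrow range in the 7 thymus tables, was higher in both spleen tables, and lay below, within or above that range in the tumor tables. By barcodes the thymus value was lowest in mouse-160C at 2.93%, followed by mouse-160B at 3.18%, mouse-164B at 3.30%, mouse-164C at 3.32%, mouse-160A at 3.35% and mouse-155C at 3.49%, and it was highest in mouse-155A at 3.60%. Spleen cells gave 4.14% (3.65 to 4.68) in mouse-155A and 4.25% (3.55 to 5.03) in mouse-155C. Both spleen values were above all thymus values, but each interval overlapped that of the thymus of the same mouse. The tumor tables spread most, with 2.21% (1.70 to 2.82) in mouse-160A, 3.07% (2.67 to 3.50) in mouse-160C, 3.68% (3.37 to 4.00) in mouse-160B, 4.78% (4.49 to 5.08) in mouse-164C and 5.85% (5.39 to 6.34) in mouse-164B. Tumor values thus lay on both sides of the thymus range, and the intervals were apart from those of the own thymus, upward, only in mouse-164B and mouse-164C. In mouse-160A they overlapped slightly, with the thymus at 2.76 to 4.02. Pooled over tables, the share was 3.27% in thymus, 4.18% in spleen and 4.33% in tumor. The median of the tables was 3.32% in thymus, 4.19% in spleen and 3.68% in tumor, so tumor stood above spleen only when pooled.

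The spleen or tumor share by barcodes was higher than the thymus share in 6 of 7 mice, with mouse-160A the exception. Of the 14 TRAV families with a median share of at least 1%, 21.4% were higher outside the thymus in at least 6 mice. Invariant NKT-like barcodes with TRAV11 and TRAJ18 are frequent in the thymus tables and lower the share of every other family there. Without them the count was 5 of 7 mice, mouse-160C being the second exception, and 0.0% of families reached 6. With barcodes of at least 2 TRA transcripts, and with barcodes weighted by transcripts, it was 3 of 7.

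Counting each distinct TRA chain of a table once removed the weight of expanded clones. The TRAV10 share was then 3.56% to 4.17% in the 7 thymus tables, 4.29% and 4.49% in the 2 spleen tables, and 4.29% to 5.88% in the 5 tumor tables. Every spleen and tumor value was above every thymus value, which held for 7.14% of the 14 families in this direction, TRAV10 being that family. The gap was small against counting error. The intervals of thymus and second tissue overlapped in all 7 mice, and the ratio of the shares ran from 1.03 in mouse-155A to 1.46 in mouse-160A, with a median of 1.20. With at least 2 transcripts behind a distinct chain, the second tissue was higher in 5 of 7 mice, and mouse-155A and mouse-155C went the other way. By distinct chains 28.6% of the families were higher outside the thymus in at least 6 mice. TRAV10 was also higher in 5 of 7 when chains found in more than 1 mouse were left out. Among the other families, by distinct chains, the second tissue was higher in 6 of 7 mice for TRAV7, TRAV8 and TRAV9. It was higher in 5 for TRAV5 and TRAV6, in 4 for TRAV12 and in 3 for TRAV14 and TRAV19. For TRAV3 and TRAV16 the count was 2, for TRAV15 it was 1 and for TRAV21 it was 0. TRAV4, whose thymus median of 4.70% is near the 3.91% of TRAV10, was higher in the second tissue in 1 mouse.

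**Figure D2:**
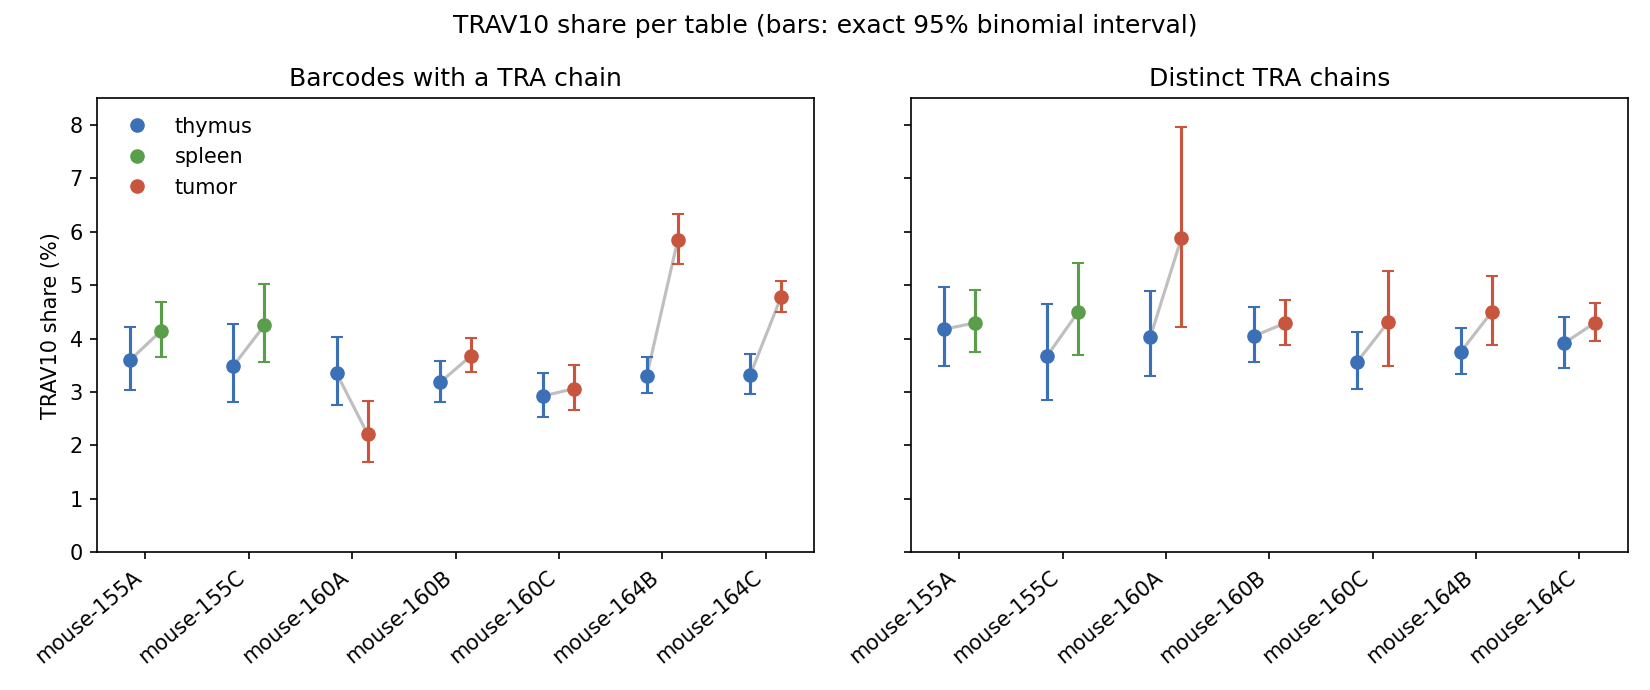
TRAV10 share of TRA-bearing barcodes (left) and of distinct TRA chains (right) in percent, with 1 point per table, exact 95% binomial intervals, and a line joining the tables of a mouse. By barcodes the tumor values run from 2.21% to 5.85% around the thymus values, and by distinct chains they draw together at 4.29% to 4.49% except for mouse-160A at 5.88%.

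Depth was low. A single TRA transcript stood behind 45.0% to 74.2% of the TRAV10 barcodes of a table, against 44.7% to 72.2% for other TRAV chains. A TRB partner was found for 44.5% to 68.9% of TRAV10 barcodes and 45.8% to 69.8% of others. In mouse-160A tumor, which stood apart in the share, 64.5% of TRAV10 barcodes had 1 transcript against 44.7% of others, and only 39 distinct TRAV10 chains were counted among 663. The part of depth in these shares was not tested.

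Most TRAV10 junctions kept the first residues of the germline end, which was not compared with other chains. Of the distinct TRAV10 chains of a table, 87.2% to 98.4% began with the residues CAA of the germline gene and 51.3% to 72.7% with CAAS. Over 2293 distinct annotated nucleotide chains, 37.1% (35.1 to 39.1) kept every base of the V exon, a smaller share than among other TRAV chains, with no test run. The mean number of V bases trimmed was 1.64, against 1.87 for other chains, and the median was 1 in both. Trimming was below that of other chains in 6 of 7 thymus tables, as it was in 35.7% of the families. A median of 3 bases could be assigned to neither V nor J, as in other chains, and 14.3% (12.9 to 15.9) of TRAV10 chains had none, against 16.2%. The mean of 2.98 such bases was below that of other chains in 7 of 7 thymus tables. That held for 85.7% of the families, while TRAV15 and TRAV21 chains had means of 22.3 and 13.3.

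TRAJ partners covered the locus. TRAJ numbers fall along the chromosome, so high numbers lie nearest the V genes. Among distinct thymus chains the median TRAJ number was 27 for TRAV10, with quartiles of 18 and 38. TRAJ41 or higher, the V-proximal end, was used by 20.2% of distinct TRAV10 chains in thymus, 20.2% in spleen and 21.8% in tumor. Other TRAV chains, without the NKT-like ones, used it in 23.0%, 23.1% and 23.4%. TRAV10 was below them in 13 of 14 tables, and 50.0% of the families were so in at least 13. Families spanned a wide range, from 7.89% in TRAV15 to 83.6% in TRAV19, and TRAV10 at 20.9% over all tables stood near TRAV12 at 21.5%.

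Individual TRAJ genes were compared by distinct chains over all tables. TRAJ22 was the most frequent, with 6.83% (5.93 to 7.83), below the 7.92% of other chains. By tissue it was below them in thymus, with 6.12% against 9.07%. In spleen it was above, with 9.15% against 7.34%, and in tumor with 6.96% against 6.76%. Over all tables TRAJ23 made up 6.26% (5.39 to 7.22) against 4.43% and TRAJ31 5.33% (4.53 to 6.23) against 4.01%. TRAJ33 made up 4.22% (3.51 to 5.03) against 2.93% and TRAJ42 2.68% (2.12 to 3.35) against 1.94%. For these 4 the interval of TRAV10 lay above the value of other chains, as it did for 7 of 45 TRAJ genes in all, TRAJ32, TRAJ9 and TRAJ49 among them, and for 11 of 45 it lay below. A sequence found in several tables counts in each here. Counted once over all tables, a setting chosen after seeing the data, 6 intervals lay above and 3 below. TRAJ42 then made up 2.89% (2.19 to 3.74) against 2.06%, TRAJ33 3.98% (3.15 to 4.95) against 2.99% and TRAJ31 5.06% (4.13 to 6.14) against 3.88%, while TRAJ23 made up 4.70%, with an interval that held the 4.21% of other chains. TRAJ18, which with TRAV11 makes the invariant NKT chain, was carried by 50 TRAV10 barcodes. In thymus these were 27 barcodes with 20 different CDR3 sequences, 1.83% (1.21 to 2.65) of TRAV10 barcodes against 1.37% of other chains, so no single TRAV10–TRAJ18 sequence prevailed.

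By barcodes the leading TRAJ gene differed between tables. TRAJ33 (54422815 to 54422871) led in mouse-164B tumor with 325 of 560 barcodes or 58.0% (53.8 to 62.2), against 13.7% of other chains there. These 325 barcodes held 7 different CDR3 sequences. TRAJ42 (54413230 to 54413293) led in mouse-164C tumor with 243 of 981 or 24.8% (22.1 to 27.6) against 1.22%. TRAJ47 (54409257 to 54409313) led in mouse-160C tumor with 55 of 211 or 26.1% (20.3 to 32.5) against 0.437%, and TRAJ23 (54433538 to 54433597) in mouse-160A tumor with 12 of 62 and in mouse-160B tumor with 39 of 516. In the thymus TRAJ23 led in mouse-160A, mouse-160B and mouse-164C, with 10 of 110, 23 of 273 and 20 of 304 barcodes, and TRAJ33 led in mouse-155C with 17 of 88 barcodes and in mouse-160C with 20 of 195. Of the TRAJ33 barcodes, 14 and 10 were 1 sequence, which is also the leading chain of mouse-164B tumor and is taken up again with the clones. TRAJ22 (54434705 to 54434764) led in both spleen tables and in mouse-164B thymus, and TRAJ31 (54425352 to 54425408) in mouse-155A thymus. All positions are on chromosome 14, GRCm39.

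**Figure D3:**
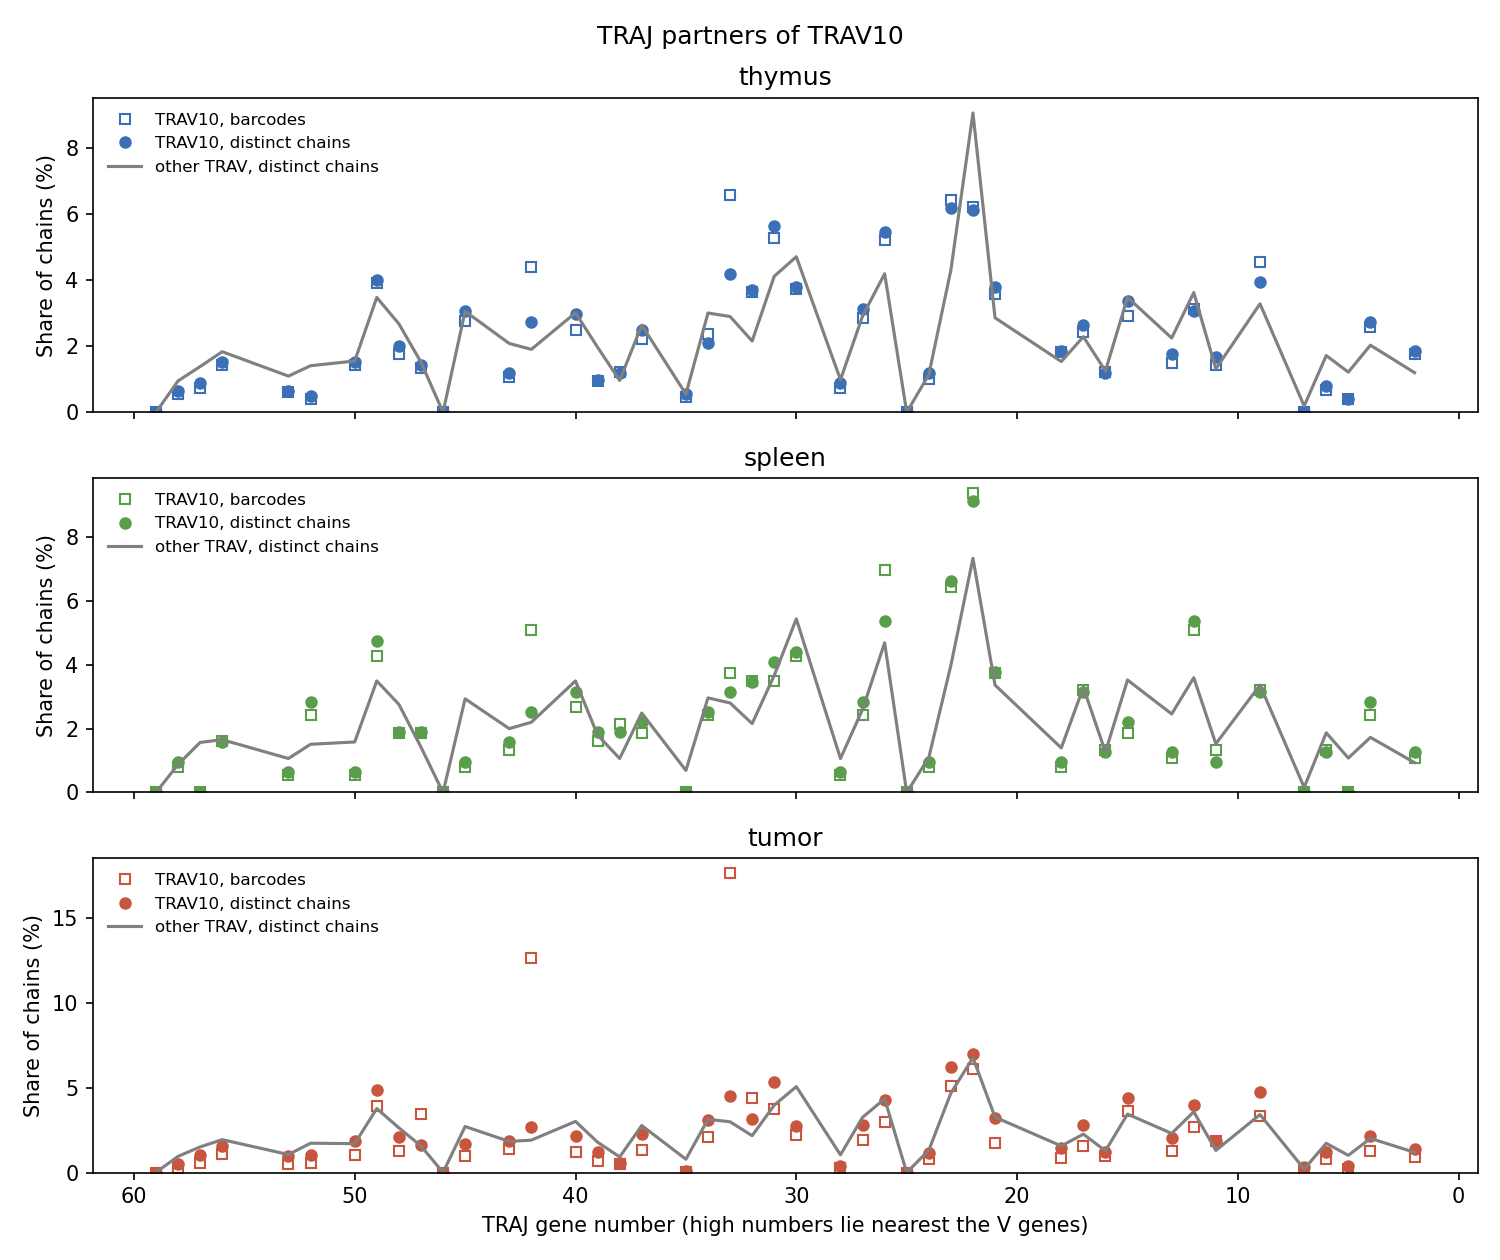
Share of TRAV10 chains with each TRAJ gene in thymus, spleen and tumor tables, in percent, by TRAJ gene number with the V-proximal end on the left. Squares count barcodes, filled points distinct chains, and the line is the distinct chains of other TRAV genes. In tumor tables TRAJ33 reaches 17.6% and TRAJ42 12.6% by barcodes, and 4.53% and 2.67% by distinct chains.

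TRB partners were known for 2616 TRAV10 cells, 935 in thymus, 197 in spleen and 1484 in tumor. The other cells set beside them have other TRAV chains, without the NKT-like ones. In thymus TRBV12-1 was the first partner with 93 cells or 9.95%, against 7.93% of other paired cells, and TRBV13-2 followed with 86 or 9.20% (7.42 to 11.2) against 9.70%. Across thymus tables TRBV12-1 ran from 7.14% in mouse-155C to 18.5% in mouse-155A, and it was below other cells in mouse-155C, mouse-160A and mouse-164C. In settings chosen after seeing the data, TRBV13-2 came first without mouse-155A, with 9.43% against 9.31%, and without mouse-164B, with 10.1% against 9.26%. In the spleen TRBV12-1 also led, with 27 of 197 or 13.7% (9.23 to 19.3) against 8.11%.

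In tumor tables TRBV13-2 was the first partner, with 319 of 1484 cells or 21.5% (19.4 to 23.7) against 10.3% of other cells, and TRBV13-1 made up 16.6% (14.8 to 18.6) against 11.3%. Counted by distinct clonotypes, they made up 10.5% and 7.24%, next to 10.3% and 7.65% of other clonotypes, and TRBV12-1 was level with TRBV13-2 at 10.5% (8.63 to 12.5) against 9.03%. Without the 2 largest clonotypes TRBV13-2 made up 10.2% of tumor cells. TRBJ1-3 held 16.7% of tumor TRAV10 cells and 4.73% of their clonotypes, against 4.06% of other clonotypes. TRBJ2-7 was the most frequent over all tables, with 470 of 2616 cells, a smaller share than the 20.2% of other cells, and TRBJ2-5 held 9.86% (8.75 to 11.1).

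Pooled by tissue, clone size of TRAV10 cells differed much as that of other cells did, while single tumor tables departed in either direction. The 2616 cells made 2121 clonotypes counted table by table. Cells in clonotypes of 1 cell made up 99.4% (98.6 to 99.8) in thymus, 99.0% (96.4 to 99.9) in spleen and 64.4% (61.9 to 66.9) in tumor. For cells with other TRAV chains, the NKT-like ones included, the values were 97.6%, 97.8% and 63.96%. Of 41 clonotypes with more than 1 cell, 38 were in tumor tables, 2 in mouse-160B thymus and 1 in mouse-155C spleen. In mouse-160B tumor 93.5% (90.2 to 96.0) of the cells were in clonotypes of 1 cell, which is the highest tumor value. Among other cells there it was 77.6%. The lowest values were in mouse-164B tumor and, with 42.9%, mouse-160C tumor. Other cells of mouse-160C tumor were lower still, with 28.8%. The gap was widest in mouse-160A tumor, with 63.3% of 30 TRAV10 cells against 19.8% of other cells. In mouse-164B and mouse-164C tumor TRAV10 lay below other cells, which had 50.2% and 77.7%. All 9 clonotypes with 10 or more cells came from mouse-160C, mouse-164B and mouse-164C tumor. The share of other clonotypes that reach this size, or more than 1 cell, was not computed. TRAV10 had 1.36 cells per clonotype in mouse-160A tumor, against 3.93 for other cells. The pair was 1.04 and 1.23 in mouse-160B tumor and 2.125 and 2.99 in mouse-160C tumor. TRAV10 was above other cells in mouse-164B tumor, with 2.58 against 1.83, and in mouse-164C tumor, with 1.39 against 1.26.

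**Figure D4:**
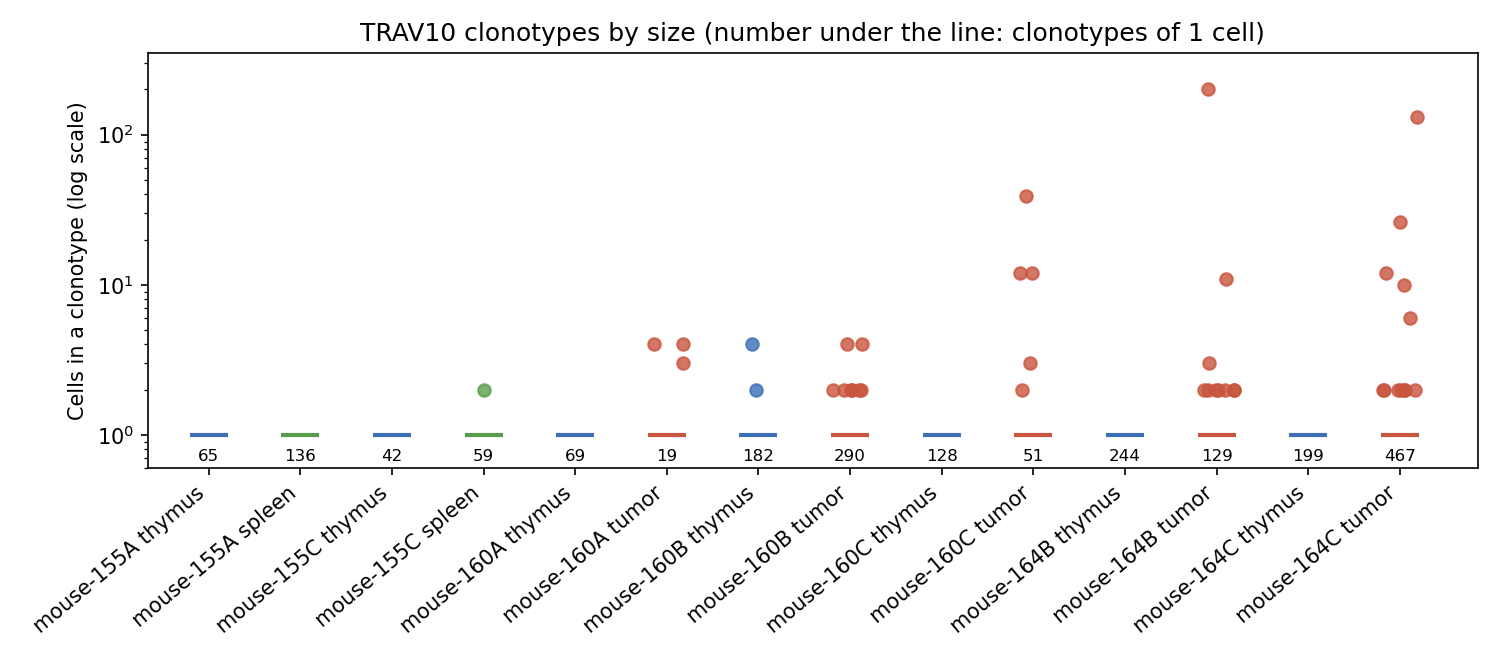
TRAV10 clonotypes of more than 1 cell, each a point, by table, with cells per clonotype on a log axis. The short line stands for clonotypes of 1 cell and the number under it counts them. Points above 10 cells occur only in the tumor tables of mouse-160C, mouse-164B and mouse-164C, up to 201 cells.

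The CDR3 nucleotide sequences of the α chains that lead these tumors are shown, since they hold the largest TRAV10 clonotypes. Capitals mark bases assigned to neither the V nor the J gene.
TRAJ33 chain, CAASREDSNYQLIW: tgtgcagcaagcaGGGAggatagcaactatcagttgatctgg
TRAJ42 chain: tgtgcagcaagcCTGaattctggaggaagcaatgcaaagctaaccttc
TRAJ47 chain, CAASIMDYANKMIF: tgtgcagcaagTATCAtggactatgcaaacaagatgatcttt
TRAJ32 chain: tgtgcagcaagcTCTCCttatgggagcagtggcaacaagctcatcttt
The TRAJ33 chain keeps the whole V exon, the TRAJ42 and TRAJ32 chains lack 1 V base and the TRAJ47 chain 2.

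The largest clonotype paired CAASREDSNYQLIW with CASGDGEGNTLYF (TRBV13-2, TRBJ1-3) in 201 cells of mouse-164B tumor. It made up 56.1% of the paired TRAV10 cells there and 3.41% (2.96 to 3.91) of all paired cells, the third rank in that table. The TRAJ42 chain with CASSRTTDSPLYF (TRBV13-1, TRBJ1-6) followed with 132 cells in mouse-164C tumor, or 0.994% (0.832 to 1.18) of paired cells. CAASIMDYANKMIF with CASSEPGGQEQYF (TRBV13-1, TRBJ2-7) had 39 cells in mouse-160C tumor, or 1.04% (0.739 to 1.42). The median cell had 7 TRA transcripts in the first and in the second. In mouse-160A and mouse-160B tumor no TRAV10 clonotype passed 4 cells, a size reached in mouse-160A by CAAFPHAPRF with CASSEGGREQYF and in mouse-160B by a clonotype with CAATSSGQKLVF. In mouse-155C spleen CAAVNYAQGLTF with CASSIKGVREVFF had 2 cells.

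The TRAJ32 chain formed a clonotype of 26 cells with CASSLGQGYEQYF (TRBV15) in mouse-164C tumor. Of 185 barcodes there with this TRB chain, 57 carried it as the second α chain and 83 had no TRA chain. Over all tables it was second in 61 barcodes, and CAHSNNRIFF was the first chain in 57 of these. A count of first chains therefore gives only part of this clone. The TRB chains of the clonotypes of 201, 132 and 39 cells were on 296, 206 and 71 barcodes of their tumors. Of these, 88, 61 and 27 had no TRA chain. The sizes given above count paired barcodes and need not be those of whole clones. Over all tables TRAV10 was the second TRA chain of 534 of 16613 barcodes with such a chain, or 3.21% (2.95 to 3.49).

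A total of 5 of 2109 TRAV10 clonotypes, or 0.237% (0.0770 to 0.552), occurred in both tissues of 1 mouse, against 0.298% of 50608 clonotypes with other TRAV chains. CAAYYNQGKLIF with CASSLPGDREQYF (TRAJ23) had 4 thymus and 2 tumor cells in mouse-160B, and a clonotype with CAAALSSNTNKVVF had 1 thymus and 3 tumor cells in mouse-160C. The remaining 3 had 1 cell on each side. None of the clonotypes of 10 or more cells was among them. A further 6 clonotypes, or 0.284% against 0.263% of the others, occurred in more than 1 mouse, where each had 1 cell outside its leading table, except for the largest, which had 1 cell each in mouse-160B tumor and mouse-160C thymus. For the 3 largest of these, every outside cell had 1 transcript in both chains.

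Many α sequences recurred without their TRB partner. Of 1935 distinct TRAV10 CDR3 amino acid sequences, 447 or 23.1% (21.2 to 25.04) were found in more than 1 mouse, against 24.4% of sequences of other TRAV families. The share of TRAV10 ranked 7 among the 14 families. A total of 5 of the 1935 TRAV10 sequences were found in all 7 mice, a similar share to the 119 of 41092 sequences of other TRAV families. The 3 of these TRAV10 sequences with most barcodes were those leading mouse-164B and mouse-164C tumor. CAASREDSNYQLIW was on 318 barcodes of mouse-164B tumor and on 70 barcodes of 12 other tables, where 97.1% had 1 TRA transcript against 36.5% in the leading table. The TRAJ42 chain was on 227 barcodes of mouse-164C tumor and 85 elsewhere, with 1 transcript on 43.2% and 98.8% of them. The TRAJ32 chain was on 53 there and 28 elsewhere, all 28 with 1 transcript. Of the outside barcodes, 26 of 70, 35 of 85 and 2 of 28 had the same second-round and third-round barcode and sublibrary as a leading-table barcode of the sequence. For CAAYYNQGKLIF and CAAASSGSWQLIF, also found in all 7 mice, it was 1 of 17 and 0 of 17. The number to be met by coincidence was not computed.

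Where annotated, the TRAJ33, TRAJ42 and TRAJ32 chains were nearly all of 1 nucleotide form each. Of 382 annotated barcodes with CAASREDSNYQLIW, 381 had the sequence shown above, over 7 mice. The TRAJ42 chain and the TRAJ32 chain each had 1 form in 135 and 31 annotated barcodes, out of 312 and 81 in all. In their leading table, mouse-164C tumor, 26.4% of TRAV10 barcodes were annotated. A different pattern was seen for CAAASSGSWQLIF (TRAJ22), also found in 7 mice, with 23 barcodes, of which 6 were in its leading table, mouse-160B tumor. It had 4 nucleotide forms and 15 different TRB partners in 15 paired cells, and 35.3% of its 17 outside barcodes had 1 transcript. Its 2 most frequent forms are shown.
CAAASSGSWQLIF, 11 barcodes: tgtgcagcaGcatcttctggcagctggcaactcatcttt
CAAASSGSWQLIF, 4 barcodes: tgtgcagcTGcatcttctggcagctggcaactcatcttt
Leaving the 3 TRAV10 sequences with most barcodes, the TRAJ33, TRAJ42 and TRAJ32 chains, out of all tables lowered the TRAV10 share from 3.87% to 3.17%.

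**Figure D5:**
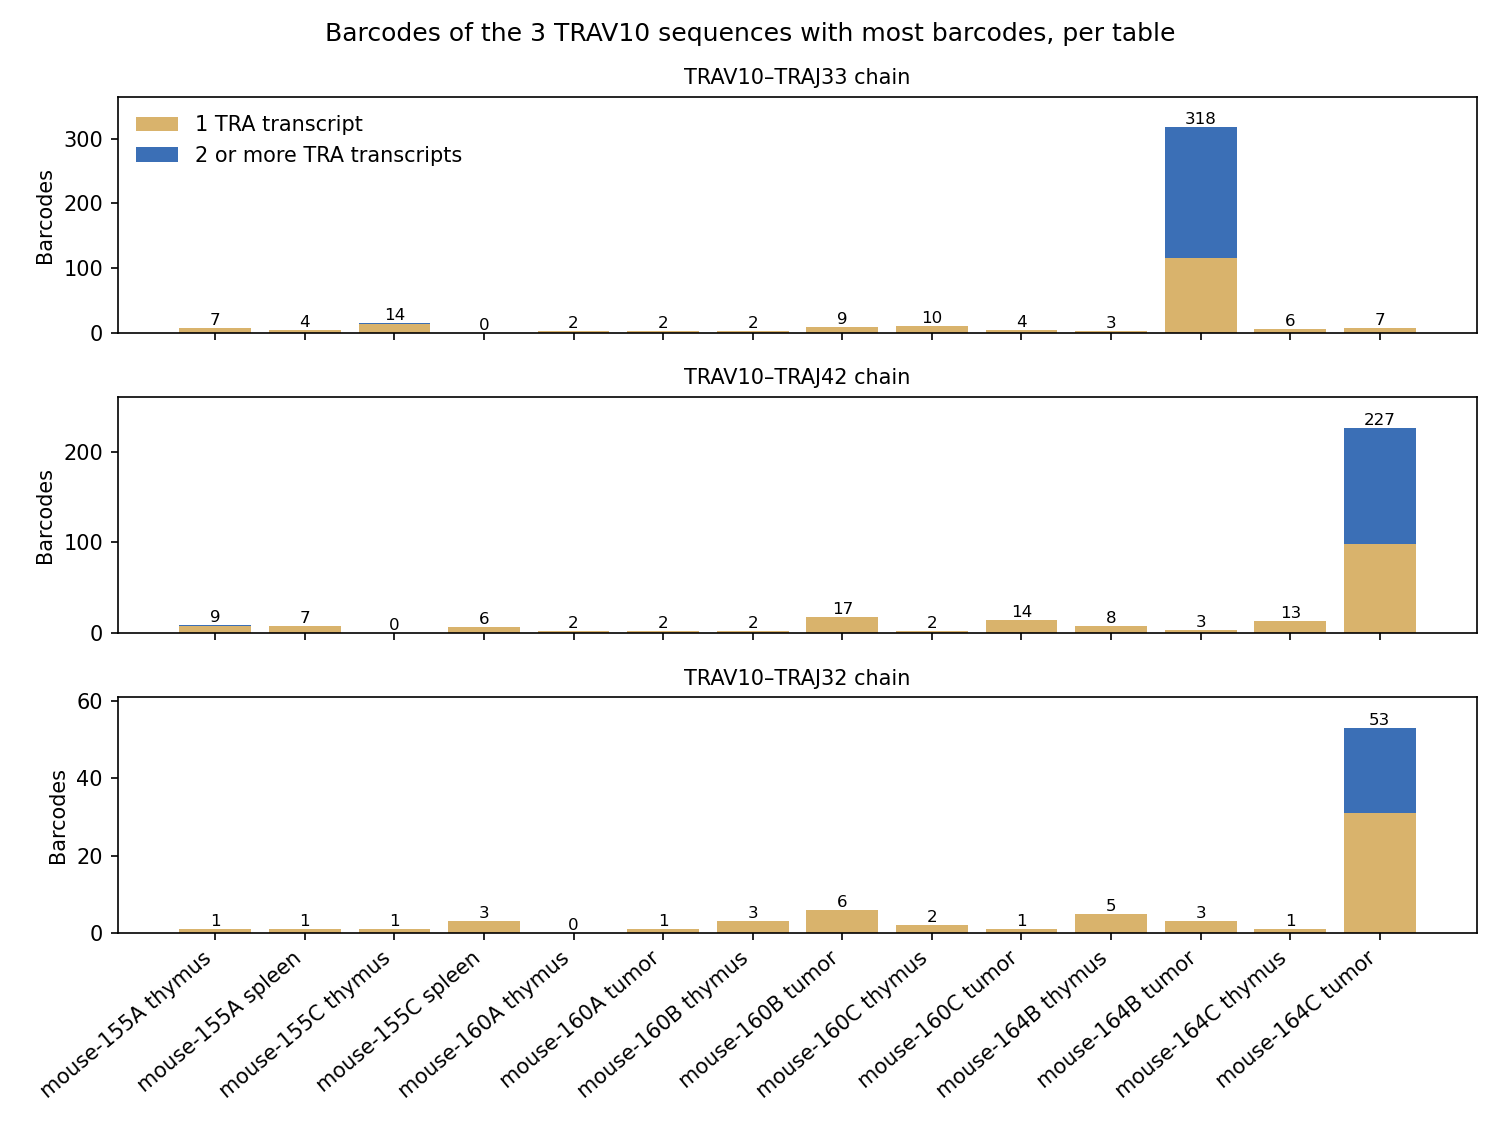
Barcodes with each of the 3 TRAV10 CDR3 sequences that have most barcodes, named by their TRAJ gene, in the 14 tables. Colours separate barcodes with 1 TRA transcript from those with more. Each sequence stands highest in 1 tumor table, with 318, 227 and 53 barcodes, and the counts in other tables, at most 17, are nearly all of 1 transcript.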

How the data were processed

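The authors assembled chains and marked multiplets with the Parse Biosciences TCR pipeline, of unstated version and gene reference. The submitters' processing notes name GRCm39, the build of the genome used here. The deposited barcode tables hold transcript counts per chain and cell, not normalized, and the deposited annotation tables hold nucleotide sequences and V identity in percent. The deposited clonotype tables were not used, since clonotypes were counted from the barcodes. All 8 sublibraries stayed ungrouped.

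Barcodes with a multiplet mark were left out, which is how doublets were treated. Shares carry exact (Clopper–Pearson) 95% intervals, which cover counting error only, and a count of 0 is set against 3 counts. Cells are not replicates, and mouse and tissue come from table names and not from the labels, so tables of a mouse were compared by their order and no p-value was computed. A distinct chain is a V call, J call and CDR3 amino acid sequence within a table, and a clonotype a pair of CDR3 amino acid sequences. TRAV11–TRAJ18 barcodes were left out of the other chains for junctions, TRAJ and TRB partners and shared sequences and clonotypes. They were kept for depth and clone size. Gene positions and V exons came from GENCODE on GRCm39. Annotation covered 77.0% of TRAV10 barcodes, with 39.6% in mouse-164B thymus, 26.4% in mouse-164C tumor and 91.9% in mouse-160B thymus. Named items were the leading TRAJ, TRBV and TRBJ genes, the largest and the shared clonotypes, and the most widespread sequences. TRAJ31 and TRAJ23 values and the second α chains were added after values were seen. So were the values of single TRAV families other than TRAV10, TRAV5, TRAV9 and TRAV16. The members and lists were chosen with earlier results of these data known. Share estimation was tested on simulated data. Python 3.11.15, pandas 2.3.3 and scipy 1.17.1 were used.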

Additional observations from a re-analysis of the deposited data

Results flagged for a closer look

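The TRAV10 share of distinct chains in mouse-160A tumor, 5.88% (4.22 to 7.95), stood apart from the other 4 tumor tables, which lay between 4.29% and 4.49%. Its gap to the nearest was 0.869 of the whole range, against 0.71 needed with 5 tables. Chance marks about 1 group in 20, and 10 groups were looked at. It rests on 39 chains.

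TRAV10 was the second TRA chain of 534 barcodes, which the shares above do not count. In 65.5% of them it had 1 transcript. The sequence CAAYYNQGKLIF was second in 24 barcodes, 17 of them in mouse-160B thymus.

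A multiplet mark was on 873 barcodes with a first chain of TRAV10, which were also left out.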

How the results depend on the processing

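The TRAV10 share over all tables, 3.87%, was 4.08% with at least 2 TRA transcripts, 4.12% by distinct chains and 4.15% weighted by transcripts. In settings chosen after seeing the data it was 4.01% without TRAV11–TRAJ18 barcodes and 3.17% without the 3 TRAV10 sequences with most barcodes. By distinct chains, also chosen after seeing the data, it was 4.31% with at least 2 transcripts and 4.13% without TRAV11–TRAJ18. The number of mice with the higher share outside the thymus was 3 with at least 2 transcripts and 3 weighted by transcripts, and 5 to 7 under the other settings. The V-proximal TRAJ share was 18.4% in thymus with at least 2 transcripts, and 21.8% in tumor by distinct chains against 27.6% by barcodes. In tumor TRBV13-2 made up 26.7% with at least 2 transcripts, 10.6% by distinct clonotypes when V and J calls also define a clonotype, and 10.2% without the 2 largest clonotypes, and TRBV12-1 6.44%, 10.5% and 10.2%. Clonotypes numbered 970 with at least 2 transcripts in both chains and 1396 without barcodes of more than 1 chain of a kind. Cells in clonotypes of 1 cell made up all 100% of thymus cells without such barcodes, and 100% of spleen and 46.8% of tumor cells with 2 transcripts. Leaving out 1 sublibrary moved the spleen value between 98.8% and 100% and the overall share between 3.81% and 3.91%. Of 280 shares of single tables under other settings, 55 lay outside the interval reported. Tables of 1 mouse were compared by their order, and no test was run on the pairs. Depth limits these values, since many barcodes rest on 1 transcript.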
